A study of Mus musculus with 2 samples.

Results

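Mutation or loss of 8 genes, species aside, has been linked to disturbed building or anchoring of the acrosome and to round-headed sperm (globozoospermia). These genes were Dpy19l2, Spata16, Pick1, Gopc, Agfg1, Gba2, Vps54 and Csnk2a2. They were found by symbol among the 50686 genes of the matrix, and each matched 1 row. The cells came from testis tissue, digested and strained, of 2 C57Bl/6J Crl mice aged 8 weeks, which were untreated wild-type littermates and are called mouse 1 and mouse 2. Each mouse gave 1 library made with the Chromium 3' v2 chemistry, in which every captured mRNA molecule is counted once by its unique molecular identifier (UMI). The 2552 cells held 57752829 UMIs, 1237 cells and 27450497 UMIs of mouse 1 and 1315 cells and 30302332 UMIs of mouse 2. The median cell held 17871 UMIs in mouse 1 and 19184 in mouse 2, and the libraries shared 0 cell barcodes.

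The acrosome is the secretory vesicle that caps the sperm nucleus and carries the enzymes used to reach the egg. It grows in round spermatids, where vesicles leave the Golgi apparatus, fuse into 1 granule and spread over the nuclear envelope, and it is shaped as the nucleus condenses. In globozoospermia the vesicles fail to form, to fuse or to stay attached, so the sperm head remains round and without a cap. Pick1, Gopc, Spata16 and Vps54 act at or near the Golgi apparatus, Agfg1 sits on the pro-acrosomal vesicles, and Dpy19l2 holds the acrosome to the nucleus. Gba2 degrades glucosylceramide, and Csnk2a2 encodes a catalytic subunit of the kinase CK2.

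Cells were grouped by K-means clustering from which the 8 genes and the related genes listed here were left out, so that the clusters do not rest on them. The 9 clusters were named from marker genes and every name means "like". They were 164 early spermatocytes, 527 pachytene or later spermatocytes, an earlier and a later cluster of round spermatids with 689 and 447 cells, 2 clusters of elongating or condensing spermatids, 6 spermatogonia, 7 Sertoli cells and 5 Leydig cells. Of the elongating or condensing clusters, the UMI-richer one held 193 cells with a median of 23995 UMIs and was led by Hemgn. The UMI-poorer one held 514 cells with a median of 11718 UMIs and was led by Prm1, the gene of protamine 1. None of the 14 markers of its class was among the leading 10 genes of the UMI-richer cluster, although 13 passed the limit there. The same held for the later round spermatids, where 9 of the 14 round spermatid markers passed. In the earlier round spermatids 6 of the 14 passed. Their mean standardised marker level was 0.494 for round spermatids, beside 0.301 for pachytene or later spermatocytes. The ordering of the cells did not separate the 2 elongating or condensing clusters. Levels are given as CPM, the gene's UMIs in counts per 1000000 UMIs, both summed over the cells of a cluster in 1 mouse. Because each molecule is tagged at its 3' end, CPM was not divided by gene length, and levels of different genes are not ranked by a test.

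Spata16 gave 28847 UMIs, Agfg1 6949, Csnk2a2 6365, Dpy19l2 6121, Pick1 3154, Gba2 2054, Gopc 1003 and Vps54 27. Spata16 therefore made up 55.5% of the UMIs of the 8 genes in mouse 1 and 50.2% in mouse 2. The 8 genes together stood at 918 CPM in mouse 1 and 909 CPM in mouse 2 in early spermatocytes, and at 1485 and 1355 CPM in pachytene or later spermatocytes. They stood at 1143 and 1000 CPM in earlier and 704 and 679 CPM in later round spermatids, and at 390 and 378 CPM in the UMI-richer and 245 and 239 CPM in the UMI-poorer elongating or condensing cluster. Per cell this was 50.3 and 46.1 UMIs at the highest and 3.11 and 3.27 UMIs at the lowest.

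**Figure D1:**
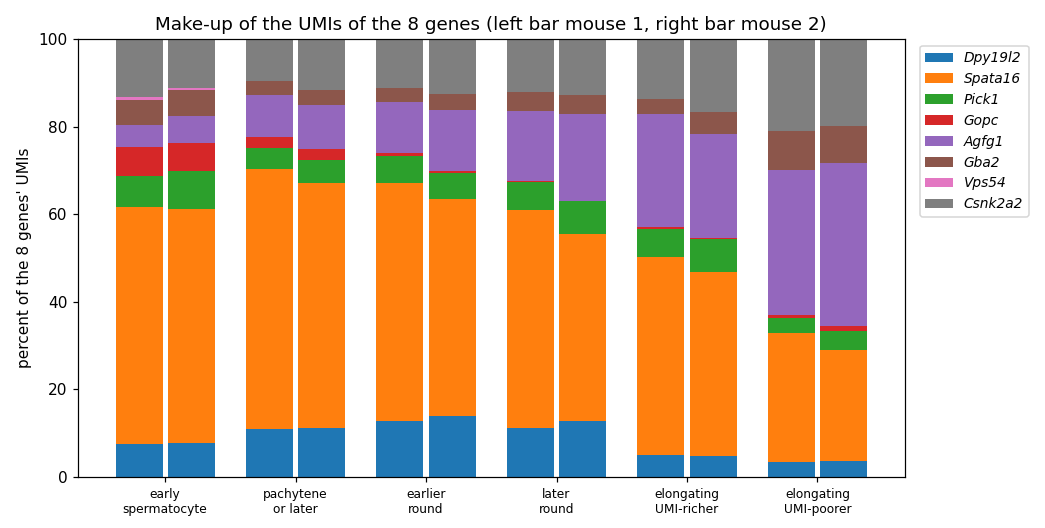
Share of each gene (colour) in the UMIs of the 8 genes, in percent, for each of 6 germ cell clusters, with mouse 1 on the left and mouse 2 on the right of each pair. Spata16 takes 54.1% and 53.4% in early spermatocytes and 29.3% and 25.4% in the UMI-poorer elongating or condensing cluster, where Agfg1 takes 33.0% and 37.3%.

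The sequences before the start sites of 4 of the genes are shown because these genes took different courses through meiosis. Dpy19l2, Spata16 and Agfg1 rose from early to pachytene or later spermatocytes, and Gopc was highest in early spermatocytes. Each run holds the 250 bases before the RefSeq start on the gene's strand, 5′ to 3′, in the GRCm38.p6 build, at chr9:24696294-24696543, - strand, for Dpy19l2, chr3:26637381-26637630, + strand, for Spata16, chr1:82839210-82839459, + strand, for Agfg1 and chr10:52382125-52382374, - strand, for Gopc. Capitals mark matches on either strand to a CRE half-site (TGACG), a MYB core (AACNG), a GC box (GGGCGG) or a CCAAT box (CCAAT), and neighbouring GC boxes may overlap.
Dpy19l2: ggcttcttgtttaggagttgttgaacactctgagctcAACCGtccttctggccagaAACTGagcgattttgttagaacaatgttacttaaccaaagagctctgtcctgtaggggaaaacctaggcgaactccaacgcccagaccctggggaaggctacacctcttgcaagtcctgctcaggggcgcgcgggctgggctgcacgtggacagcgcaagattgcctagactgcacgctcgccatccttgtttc
Spata16: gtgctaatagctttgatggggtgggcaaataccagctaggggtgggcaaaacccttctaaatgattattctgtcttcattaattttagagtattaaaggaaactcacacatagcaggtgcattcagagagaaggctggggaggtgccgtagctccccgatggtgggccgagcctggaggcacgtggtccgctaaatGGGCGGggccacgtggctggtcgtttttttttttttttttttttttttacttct
Agfg1: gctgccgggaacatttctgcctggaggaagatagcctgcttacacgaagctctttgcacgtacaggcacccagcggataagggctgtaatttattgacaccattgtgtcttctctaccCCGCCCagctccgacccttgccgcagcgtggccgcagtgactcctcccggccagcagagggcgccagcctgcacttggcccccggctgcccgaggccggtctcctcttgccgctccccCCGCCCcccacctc
Gopc: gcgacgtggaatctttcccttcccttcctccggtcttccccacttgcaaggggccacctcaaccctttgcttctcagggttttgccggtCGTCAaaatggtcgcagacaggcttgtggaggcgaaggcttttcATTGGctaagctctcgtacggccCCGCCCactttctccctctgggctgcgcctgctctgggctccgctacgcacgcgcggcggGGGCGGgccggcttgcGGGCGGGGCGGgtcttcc

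RefSeq windows from 250 bases before to 50 bases after a start were found for all 8 genes, with 2 windows for Pick1. The Dpy19l2 window held 3 MYB cores, the first bases of which lay at -213, -194 and 30 from the start, and a CRE half-site at 11. The Spata16 window held 1 MYB core, at 45, while the Gopc and Agfg1 windows held 0. A MYB core was present in 80.3% of the 32851 windows of all genes, a CRE half-site in 20.8%, a GC box in 35.7% and a CCAAT box in 37.4%, so that a match is a description and no sign of a bound site. The letters TATAA were in 24.9% of all windows and in 0 windows of the 8 genes. The windows of Vps54 and Csnk2a2 held 49 and 30 CpG, against 9 in Spata16 and a median of 7 over all windows.

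Dpy19l2 encodes a protein of the inner nuclear membrane that anchors the acrosome and lies at chr9:24557047-24696293 on the minus strand (GRCm38). It was at 69.6 CPM in mouse 1 and 70.2 CPM in mouse 2 in early spermatocytes, 162 and 152 CPM in pachytene or later spermatocytes, and 148 and 139 CPM in earlier round spermatids. In later round spermatids it was at 79.2 and 87.8 CPM, and in the UMI-richer and the UMI-poorer elongating or condensing clusters at 19.9 and 18.6 CPM and at 8.60 and 8.60 CPM. Both mice gave the same order of clusters, and the values of neighbouring clusters in that order did not overlap. The highest cluster stood 18.3 ± 0.790-fold (SD, n = 2) above the lowest. Carry-over at the rate of the pachytene marker Pou5f2 would give 4.76 and 3.38 CPM of the 8.60 and 8.60 CPM of that lowest cluster, and its part in the fold was not tested. In 12 Sertoli- and Leydig-like cells it had 0 UMIs, which allows up to 22.1 CPM. After each cell was thinned to 5000 UMIs, 62.3% and 54.3% of the pachytene or later cells and 4.58% and 4.35% of the UMI-poorer elongating or condensing cells held a Dpy19l2 UMI. Without thinning these shares were 95.1% and 97.3%, and 10.6% and 11.3%. In the Sertoli- and Leydig-like cells, whose median depths were 12039 and 9856 UMIs, 0 of 12 cells held one, which at 3 counts allows a share of cells with a UMI of up to 25.0% and does not limit the share expressing the gene. Cypt4, a spermatid gene within Dpy19l2 on the opposite strand, had 46323 UMIs and took another course, from 48.1 CPM in pachytene or later spermatocytes to 3164 CPM in the UMI-richer elongating or condensing cluster over both mice.

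Spata16 encodes a testis protein of the Golgi apparatus and of pro-acrosomal vesicles, and lies at chr3:26637620-26983212 on the plus strand. Its levels were 497 and 485 CPM in early spermatocytes, 881 and 757 CPM in pachytene or later spermatocytes, and 620 and 496 CPM in earlier round spermatids. They were 351 and 289 CPM in later round spermatids, 176 and 158 CPM in the UMI-richer and 71.9 and 60.8 CPM in the UMI-poorer elongating or condensing cluster. The early spermatocytes and the earlier round spermatids overlapped between mice, and the other neighbours in the order of levels did not. The level was lower in mouse 2 in each of the 6 clusters. The 95% interval of the ratio included 1 in early spermatocytes (0.882 to 1.08) and in the UMI-richer (0.778 to 1.03) and UMI-poorer (0.698 to 1.02) clusters. In the class of round spermatids, both clusters together, the level was 0.806 times that of mouse 1 (95% interval 0.776 to 0.837, counting error only), at 507 and 409 CPM. Gopc, at 5.03 and 3.47 CPM, was the other of the 7 genes with at least 100 UMIs that was over 1.2-fold lower in mouse 2 in that class, with a ratio of 0.691 (0.459 to 1.04). Of all 9352 genes with at least 100 UMIs there, 12.8% were over 1.2-fold lower in mouse 2. With 1 library per mouse, animal and library cannot be told apart.

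Csnk2a2, at chr8:95446096-95490039 on the minus strand, was at 122 and 102 CPM in early spermatocytes and 142 and 157 CPM in pachytene or later spermatocytes. It was at 127 and 125 CPM in earlier and 85.5 and 87.5 CPM in later round spermatids, and at 52.9 and 63.2 CPM and 51.6 and 47.8 CPM in the UMI-richer and UMI-poorer elongating or condensing clusters. In the 12 Sertoli- and Leydig-like cells it had 12 UMIs, or 88.6 CPM, so it was the member seen most outside the germ cells by count. Its highest and lowest germ cell clusters differed 3.02 ± 0.373-fold in CPM (SD, n = 2). Under the main scaling of the tests between cell classes below, its falls after pachytene or later spermatocytes were not called.

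Agfg1, a GTPase-activating protein for Arf that sits on the cytosolic face of pro-acrosomal vesicles and is needed for their fusion, lies at chr1:82839483-82901182 on the plus strand. It was at 44.9 and 56.2 CPM in early spermatocytes, 142 and 136 CPM in pachytene or later spermatocytes and 133 and 139 CPM in earlier round spermatids. In later round spermatids it was at 112 and 135 CPM, and in the UMI-richer and UMI-poorer elongating or condensing clusters at 100 and 89.7 CPM and at 80.7 and 89.2 CPM. The pachytene or later spermatocytes and both round spermatid clusters overlapped between mice, and the early spermatocytes lay below all other clusters in both mice. Agfg1 was the only one of the 8 genes with its lowest of the 6 cluster means in early spermatocytes.

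Pick1, a scaffold with a PDZ and a BAR domain that carries vesicles from the Golgi apparatus, and Gopc, a PDZ protein of the Golgi apparatus and binding partner of Pick1, took different courses. Pick1 (chr15:79229173-79249484, plus strand) was at 65.0 and 78.9 CPM in early spermatocytes, 72.5 and 71.0 CPM in pachytene or later spermatocytes, and 70.1 and 59.3 CPM in earlier round spermatids. It was at 45.2 and 50.2 CPM in later round spermatids and at 8.32 and 10.5 CPM in the UMI-poorer elongating or condensing cluster. Gopc (chr10:52335850-52382124, minus strand) was at 60.5 and 59.5 CPM in early spermatocytes and 38.2 and 35.6 CPM in pachytene or later spermatocytes, but at 7.48 and 5.04 CPM in earlier round spermatids. In later round spermatids and both elongating or condensing clusters it lay between 1.07 and 2.55 CPM. Early spermatocytes stood 40.9 ± 5.77-fold (SD, n = 2) above later round spermatids, in which Gopc had 15 UMIs in all.

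Part of such low values can be RNA of other cells in the same droplet. Pou5f2, a marker of pachytene spermatocytes, was found in later round spermatids at 1.77% of its pachytene level in mouse 1 and 2.21% in mouse 2. At those shares the pachytene Gopc level would give 0.678 and 0.786 CPM, beside the 1.64 and 1.32 CPM measured (intervals 0.659 to 3.38 and 0.570 to 2.60). For Dpy19l2 the same shares give 2.87 and 3.37 CPM beside 79.2 and 87.8 CPM. In the UMI-poorer elongating or condensing cluster Pou5f2 was at 2.94% and 2.22% of its pachytene level, from which the Dpy19l2 values given above were computed. For Spata16 these shares give 25.9 and 16.8 CPM beside 71.9 and 60.8 CPM. How much of the low Gopc, Dpy19l2 and Spata16 levels in these cells is carried over was not tested.

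Gba2, the non-lysosomal glucosylceramidase at chr4:43566928-43578873 on the minus strand, was at 53.1 and 52.9 CPM in early spermatocytes and 46.1 and 45.7 CPM in pachytene or later spermatocytes. It was at 36.9 and 36.1 CPM in earlier and 30.0 and 28.6 CPM in later round spermatids, and at 13.6 and 18.9 CPM and 21.9 and 19.7 CPM in the UMI-richer and UMI-poorer elongating or condensing clusters. The mice did not overlap between any neighbours in the order of levels, but the last 2 clusters lay close. In mouse 2 their Poisson intervals were 14.2 to 24.8 and 15.1 to 25.3 CPM. Per cell the UMI-richer cluster was the higher one, at 0.410 ± 0.120 beside 0.274 ± 0.00608 UMIs (SD, n = 2). Creb3, which overlaps Gba2 on the opposite strand, had 725 UMIs and was at 22.2 CPM in early spermatocytes and 12.6 CPM in pachytene or later spermatocytes over both mice. Whether strand was used in counting is not given in the sources used here.

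Vps54 (chr11:21239281-21321136, plus strand) encodes the subunit that defines the GARP complex, a tether for vesicles returning to the Golgi apparatus. Of its 27 UMIs, 18 lay in early spermatocytes, 7 of mouse 1 and 11 of mouse 2, or 6.41 and 4.54 CPM. Pachytene or later spermatocytes held 5 and 1 UMIs and the later round spermatids 1 and 0. In earlier round spermatids and in both elongating or condensing clusters it had 0 UMIs in each mouse, which allows up to 0.510 CPM in mouse 1 and 0.360 CPM in mouse 2 in earlier round spermatids. A level below these limits is not excluded.

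**Figure D2:**
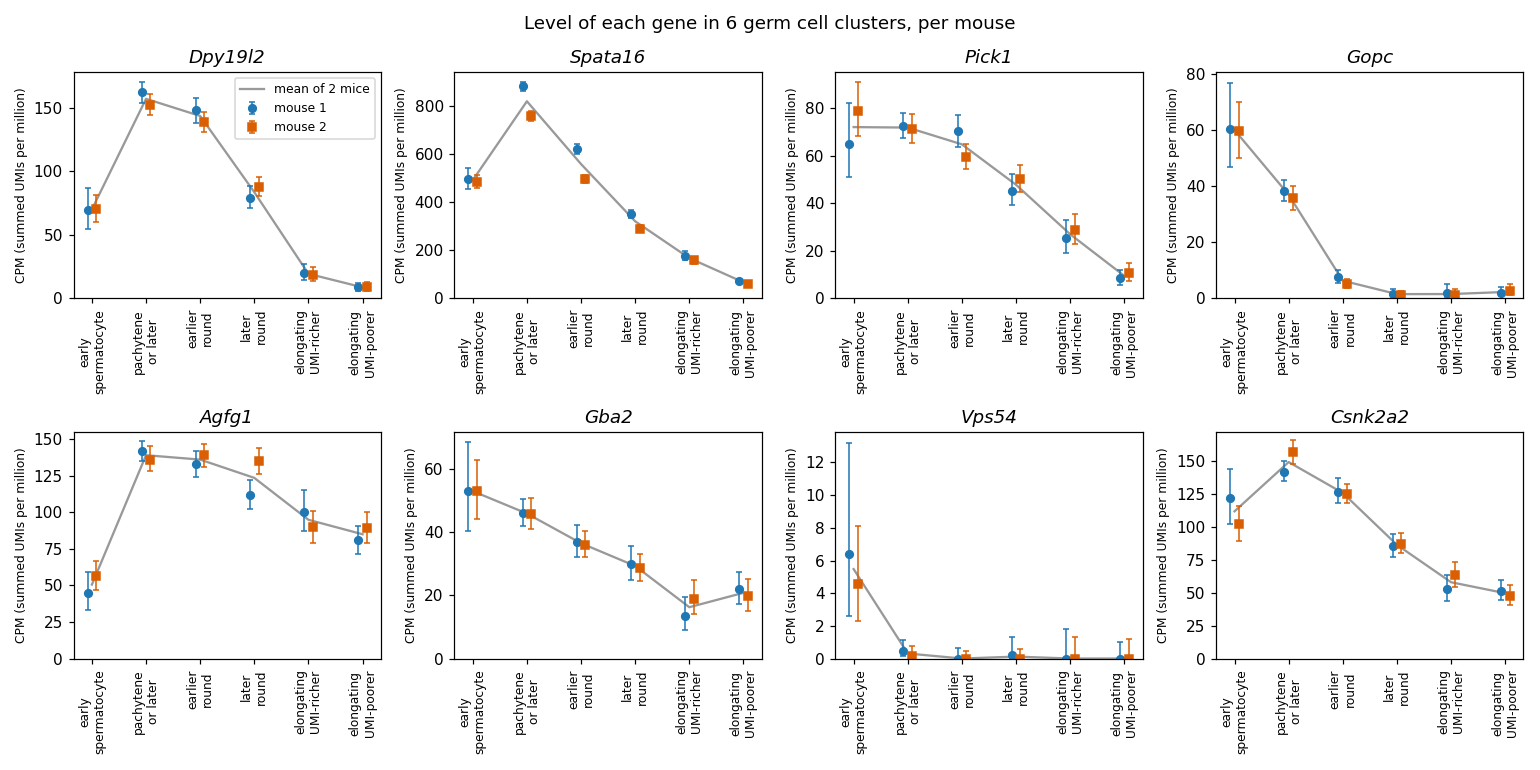
CPM (y axis, from 0) of each of the 8 genes in 6 germ cell clusters (x axis), with circles for mouse 1, squares for mouse 2, exact 95% Poisson intervals of the counts as bars and a grey line through the mean of both mice. Dpy19l2 is at 162 and 152 CPM in pachytene or later spermatocytes and at 8.60 and 8.60 CPM in the UMI-poorer elongating or condensing cluster, Gopc is near 0 after meiosis, and the order of the last 2 clusters is one of UMI content and not of time.

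Changes between consecutive cell classes were tested with edgeR's quasi-likelihood test on the UMIs summed per mouse and class, with TMM scaling and Benjamini-Hochberg adjustment over 14797 genes, and a gene was called at an adjusted p under 0.05. The 2 round spermatid clusters formed 1 class here, as did the 2 elongating or condensing clusters. All 8 genes passed the filter on low counts, Vps54 through its early spermatocytes. Each class has only 2 sums, so the spread of a gene was estimated over all 4 classes together and drawn towards that of other genes. Which sums share a mouse was not used. The clusters come from the same cells, and the p-values rest on these 2 mice and on that shared spread. The CPM printed beside a fold change are not TMM-scaled, so their ratio differs from that fold change.

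From early to pachytene or later spermatocytes 4 of the 8 genes rose, 3 were not called, and Vps54 was called lower, where 26.7% of all genes tested were called higher and 22.0% lower. Agfg1 rose by 1.77 ± 0.176 (log2 fold change ± SE, adjusted p = 4.0e-08 by edgeR), from 50.5 ± 7.97 to 139 ± 4.17 CPM (SD, n = 2). Dpy19l2 rose by 1.52 ± 0.156 (edgeR, adjusted p = 6.5e-08), from 69.9 ± 0.405 to 157 ± 6.84 CPM. Spata16 rose by 1.10 ± 0.160 and Csnk2a2 by 0.80 ± 0.146 (edgeR, adjusted p = 7.0e-06 and 0.00011). These 4 genes were higher in pachytene or later spermatocytes in 2 of 2 mice. Vps54 had 18 UMIs in early and 6 in pachytene or later spermatocytes, and because it passed the filter through the former, its call (log2 fold change -3.54 ± 0.689) is not a test of a fall. Pick1 changed by 0.32 ± 0.175, Gba2 by 0.14 ± 0.166 and Gopc by -0.35 ± 0.185, with adjusted p of 0.14, 0.51 and 0.13 by edgeR. Gopc was called lower, at -0.37, once the mouse was a block in the edgeR fit (adjusted p = 0.043). It was also called lower with DESeq2, by library size and with clustering on the 2000 most variable genes, so its lack of a call depends on the setting. The signs of Pick1 and Gba2 turned under library-size scaling, to -0.04 and -0.22. The median change of the 8 genes was 0.56, beside 0.08 over all genes tested.

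From pachytene or later spermatocytes to round spermatids 2 of the 8 genes fell and 0 rose, where 36.8% of all genes were called higher and 33.1% lower. Gopc fell by 2.93 ± 0.201 (edgeR, adjusted p = 2.3e-11), from 36.9 ± 1.88 to 4.25 ± 1.10 CPM (SD, n = 2). Spata16 fell by 0.64 ± 0.156 (edgeR, adjusted p = 0.0011), from 819 ± 87.8 to 458 ± 69.5 CPM. The other 6 were not called at TMM scaling, with changes of -0.21 for Dpy19l2, -0.11 for Pick1, 0.12 for Agfg1, -0.25 for Gba2, -2.39 for Vps54 and -0.24 for Csnk2a2. Agfg1 changed sign under library-size scaling, to -0.09, and when counted as UMIs per cell, to -0.75. Pick1 did so with cells thinned to 5000 UMIs, to 0.10. The median was -0.24, beside -0.01 over all genes.

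From round to elongating or condensing spermatids 3 of the 8 genes fell and 0 rose, where 27.7% of all genes were called higher and 37.2% lower. Dpy19l2 fell by 2.40 ± 0.164 (edgeR, adjusted p = 3.3e-11), from 118 ± 0.881 to 13.0 ± 0.416 CPM (SD, n = 2). Spata16 fell by 1.29 ± 0.162 and Pick1 by 0.99 ± 0.179 (edgeR, adjusted p = 4.1e-07 and 5.0e-05). Agfg1 changed by 0.23 ± 0.152, Gba2 by -0.02 ± 0.162, Gopc by -0.35 ± 0.327, Csnk2a2 by -0.25 ± 0.141 and Vps54 by -1.74 ± 2.67, none of them called by edgeR. The median was -0.67, beside -0.34 over all genes.

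The scaling mattered most at this last step. In elongating or condensing spermatids, where Prm1 alone reached 79757 CPM over both mice in the UMI-poorer cluster, the TMM factors were 0.567 and 0.589. Scaled by library size alone, all genes tested shifted by a median of -0.35, -0.20 and -0.79 at the 3 steps, and calls at the last step became 2696 higher and 8402 lower, in place of 4095 and 5502. Under it 7 of the 8 genes were called lower at the last step, Agfg1 among them at -0.56 (adjusted p = 0.00077 by edgeR), so that Agfg1, Gba2, Gopc and Csnk2a2 have no call there that holds across scalings. DESeq2, with shifts of -0.27, 0.08 and 0.43, called Agfg1 higher, at 0.65, and Gba2 higher, at 0.41 (adjusted p = 2.9e-05 and 0.039). Counted as UMIs per cell, all genes shifted by 0.32, -0.86 and -1.16, and 8 of the 8 genes were called lower at the second step and 7 at the third, as were 8162 and 9573 of the 14797 genes tested. At the first step Pick1, at 0.65, and Gba2, at 0.47, were then called higher as well (adjusted p = 0.011 and 0.045 by edgeR). The falls of Dpy19l2, Spata16 and Pick1 at the last step kept their direction and their call under each alternative with a test.

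**Figure D3:**
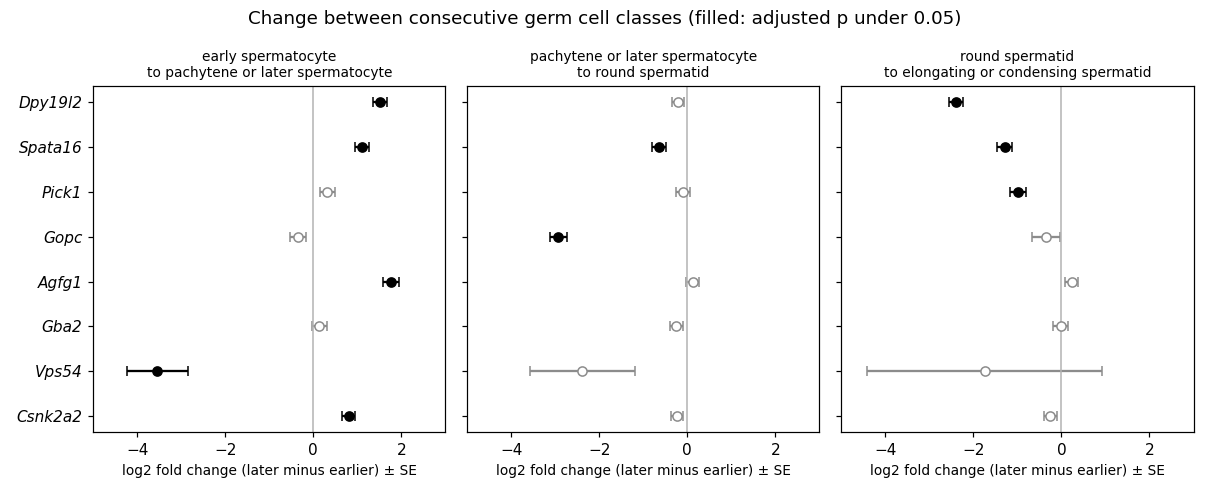
Log2 fold change (later minus earlier class, x axis) of the 8 genes at 3 consecutive steps, with bars for the SE of the edgeR fit and filled circles where the adjusted p is under 0.05. At the first step 4 genes lie above 0 as filled circles, at the second Gopc lies at -2.93, and at the third Dpy19l2 lies at -2.40.

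Between the 6 clusters, a comparison added after the classes had been seen, Dpy19l2 fell from earlier to later round spermatids by 0.53 ± 0.132 (edgeR over 13891 genes, adjusted p = 0.0021) and from there to the UMI-richer elongating or condensing cluster by 1.62 ± 0.169 (edgeR, adjusted p = 3.7e-08). At that second step 2 of the 8 genes fell, Dpy19l2 and Spata16, and 0 rose, where 20.7% of all genes were called lower and 23.4% higher. Between the 2 round spermatid clusters 3 of the 8 genes fell and 0 rose, where 20.3% of all genes were called lower and 25.9% higher. The other 2 that fell were Spata16, by 0.55 ± 0.147, and Gopc, by 1.81 ± 0.350 (edgeR, adjusted p = 0.0033 and 0.00016). These falls of Dpy19l2, Spata16 and Gopc between the round spermatid clusters, and of Dpy19l2 and Spata16 after them, were also called under library-size scaling and as UMIs per cell. Between the round spermatid clusters 5 and 3 of the 8 genes were then called lower, beside 4534 and 3117 of all 13891. At the step after them it was 6 and 5 of the 8, beside 5432 and 4553 of all 13891, with median shifts of -0.50 and -0.38 against TMM. Dpy19l2, Spata16 and Pick1 were called lower in the UMI-poorer than in the UMI-richer elongating or condensing cluster under all 3 scalings. By library size 3 of the 8 genes and 5079 of all 13891 were called lower there, with a median shift of -0.59 against TMM. As UMIs per cell it was 6 of the 8 and 8824 of all 13891, with a shift of -1.51, so that scaling called most genes lower. Agfg1 and Gba2 were called higher there with TMM alone, at 0.43 ± 0.158 and 0.91 ± 0.212 (edgeR, adjusted p = 0.036 and 0.0013). By library size Agfg1 was at -0.17 and Gba2 at 0.33, neither called (edgeR, adjusted p = 0.38 and 0.21), and as UMIs per cell both were called lower, so that neither has a direction between these clusters that holds across scalings. With TMM that was 2 of 8 higher and 3 of 8 lower, where 16.1% and 23.4% of all genes were, and Vps54 had 0 UMIs in both clusters. From early to pachytene or later spermatocytes this fit called 4 of the 8 genes higher and 2 lower. From there to earlier round spermatids it called 0 higher and 3 lower. The median changes of the 8 were 0.45 and -0.23, beside 0.00 and -0.03 over all genes. The shares of all genes called at these steps are not given here.

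Along a diffusion ordering of 2534 germ cells in 10 bins of about equal size, Gopc and Gba2 were highest in bin 1, at 54.0 ± 0.126 and 54.4 ± 3.95 CPM (SD, n = 2). The other genes but Vps54 were highest in bin 2, with Dpy19l2 at 173 ± 5.50, Agfg1 at 150 ± 1.79 and Csnk2a2 at 148 ± 4.60 CPM. Gopc was at 31.5 ± 0.159 CPM in bin 3 and 7.87 ± 1.24 CPM in bin 4, whereas Dpy19l2 was at 160 ± 6.07 and 162 ± 9.45 CPM in these bins. Dpy19l2 then went from 80.2 ± 1.70 CPM in bin 7 to 23.1 ± 12.0 CPM in bin 8, where elongating or condensing cells first made up most of the bin. Agfg1 was at 95.9 ± 5.27 CPM in bin 10. The bin of the highest level was not firm for most genes. Pick1 and Agfg1 peaked in bin 4 without the called doublets. Counted as UMIs per cell, Dpy19l2, Spata16, Pick1, Agfg1, Gba2 and Csnk2a2 all peaked in bin 3. With 20 bins Dpy19l2 peaked in bin 7 of these. Pick1 peaked in bin 4 in mouse 1 alone and in bin 1 in mouse 2 alone. Gopc and Vps54 peaked in bin 1 under each setting.

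**Figure D4:**
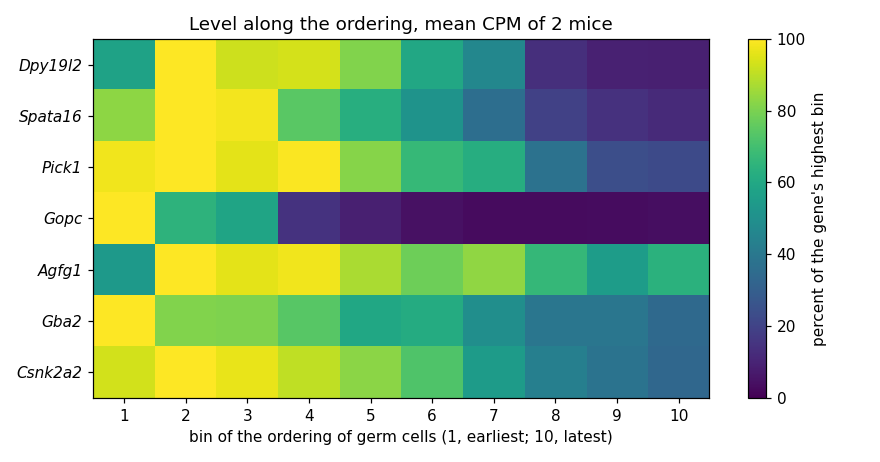
Mean CPM of both mice in 10 bins of the ordering of germ cells (x axis), as percent of each gene's highest bin (colour), for the 7 genes with over 500 UMIs. Gopc is bright only in bins 1 to 3, Dpy19l2 stays bright to bin 5, and Agfg1 keeps the highest percent in bin 10.

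Pearson correlations were taken over the 10 bins in 2 mice (20 points of log2(CPM + 10), which share libraries and cells). Spata16 and Csnk2a2 were the pair of members most alike, at 0.986, and Agfg1 and Vps54 the least, at -0.437. Vps54 had only 27 UMIs, and its level lay below the added 10 CPM in every bin. Its correlations therefore rest on few counts. Among the pairs without Vps54, Gopc and Agfg1 were the least alike, at 0.124. Of all genes with at least 500 UMIs, those most like Gopc were Pfdn2, Gnl2 and Hnrnpm, each at 0.994. Those most like Dpy19l2 were Hcfc2 (0.992), Rtn3 (0.992) and Fam186b (0.991), those most like Spata16 were Spag6l (0.993), Ddx46 (0.992) and Eif2s2 (0.992), and those most like Agfg1 were Nadk2 (0.946), Peli2 (0.944) and 4930483J18Rik (0.930). Many genes lie this close to each other. The 3 most alike were recomputed for every member, Vps54 included, with other bins, another pseudocount or 1 mouse. In 25 of 32 such recomputations at most 1 of the 3 was kept.

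Partners and paralogs of the members were followed as a list of 12 genes, of which 10 passed the filter on low counts. From early to pachytene or later spermatocytes 2 rose and 4 fell, at the next step 3 rose and 2 fell, and at the last 3 rose and 4 fell by edgeR. Beside the 10 tested, 26.7%, 36.8% and 27.7% of all genes were called higher at the 3 steps and 22.0%, 33.1% and 37.2% lower. Their median changes were -0.38, 0.03 and -0.26. Under library-size scaling the last step had 1 higher and 7 lower, and as UMIs per cell the second had 1 and 5. The percentages here are those of TMM and do not apply to these counts. All genes tested shifted there by a median of -0.79 and -0.86, and most were called lower. Csnk2a1, the other catalytic subunit of CK2, fell where Csnk2a2 rose, by 2.60 ± 0.288 from early to pachytene or later spermatocytes (edgeR, adjusted p = 1.9e-07), from 25.0 ± 6.13 to 3.11 ± 0.340 CPM (SD, n = 2). In the 12 Sertoli- and Leydig-like cells Csnk2a1 stood at 125 CPM, from 17 UMIs. The regulatory subunit Csnk2b rose at that first step by 1.06 ± 0.177 (edgeR, adjusted p = 3.8e-05), to 1109 ± 42.5 CPM. Some called genes of this list turned sign under other settings. Csnk2a1 did so at the second step with thinned cells, and Csnk2b at the last step by library size and as UMIs per cell.

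The Vps54 partners were found in germ cells at higher counts than Vps54. Vps52 was at 38.9 ± 1.68 CPM and Vps53 at 7.86 ± 0.674 CPM (SD, n = 2) in pachytene or later spermatocytes. Vps53 fell from early to pachytene or later spermatocytes by 1.54 ± 0.240 (edgeR, adjusted p = 1.6e-05), and Vps52 rose by 0.73 ± 0.188 (edgeR, adjusted p = 0.0029). Vps51 rose by 3.07 ± 0.247 from round to elongating or condensing spermatids (edgeR, adjusted p = 4.6e-10) and stood at 28.6 ± 2.09 CPM in the UMI-richer of their clusters. Vps51, Vps52 and Vps53 also belong to a second tether, EARP, which lacks Vps54.

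Of the Dpy19l paralogs, which encode C-mannosyltransferases or their relatives, Dpy19l1 was at 16.5 ± 1.23 CPM and Dpy19l3 at 4.87 ± 1.60 CPM (SD, n = 2) in earlier round spermatids, beside 143 ± 5.93 CPM for Dpy19l2. Dpy19l1 rose from pachytene or later spermatocytes to round spermatids by 0.96 ± 0.211 (edgeR, adjusted p = 0.00039), a step at which Dpy19l2 was not called. Dpy19l3 was at 0 CPM in early and 0.460 ± 0.109 CPM in pachytene or later spermatocytes. Because it passed the filter on low counts through later classes, its call at that step (log2 fold change 3.92 ± 0.431) is not a test of a rise. It is counted among the partners and paralogs called higher there. Agfg2, the paralog of Agfg1, had 35 UMIs over all cells, of which 11 lay in the 12 Sertoli- and Leydig-like cells.

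**Figure D5:**
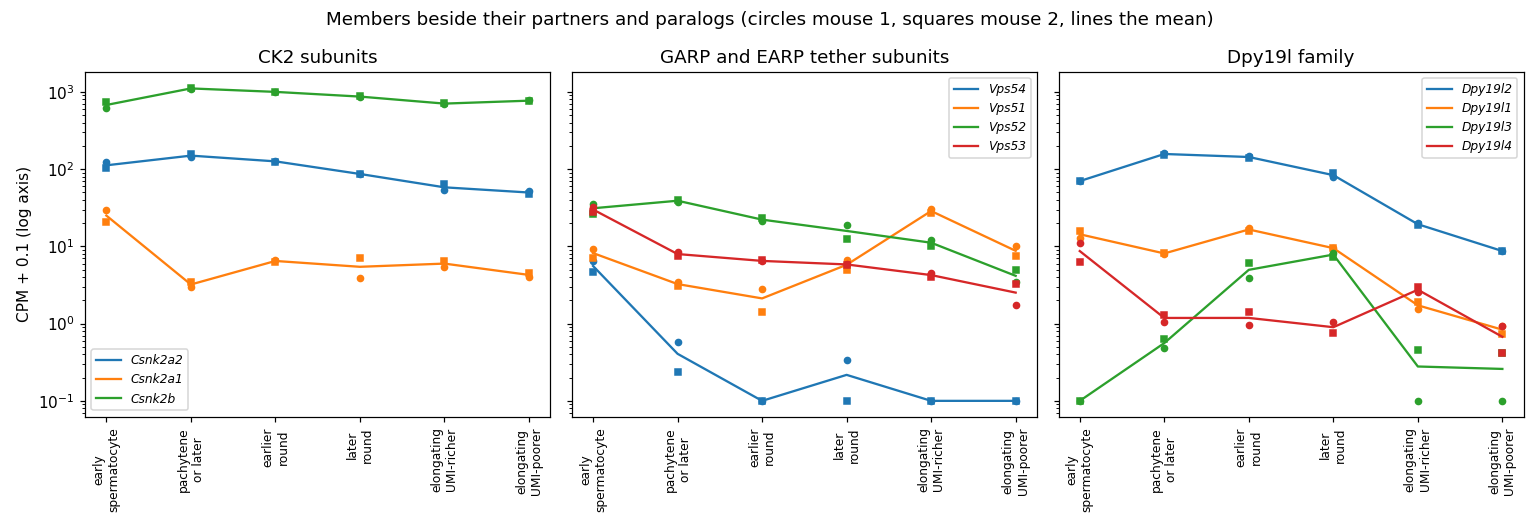
CPM + 0.1 on a log axis of Csnk2a2, Vps54 and Dpy19l2 beside their partners and paralogs in 6 germ cell clusters, with circles for mouse 1, squares for mouse 2 and lines for the mean. Csnk2a2 and Dpy19l2 lie above their catalytic and family paralogs in all 6 clusters, and Vps54 lies below Vps51, Vps52 and Vps53.

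A further 24 genes whose loss is known to disturb the acrosome were listed, and all were tested. From early to pachytene or later spermatocytes 14 rose and 1, Vps13b, fell. From pachytene or later spermatocytes to round spermatids 8 rose and 10 fell, and from round to elongating or condensing spermatids 7 rose and 15 fell by edgeR. As shares of the 24 these are to be read against the same percentages of all genes, 26.7% higher and 22.0% lower at the first step, 36.8% and 33.1% at the second and 27.7% and 37.2% at the last. Their median changes were 0.62, -0.12 and -0.79. As UMIs per cell the second step had 6 higher and 14 lower, and the third 3 and 18. The percentages here are those of TMM and do not apply to these counts. As UMIs per cell all genes tested shifted by a median of -0.86 and -1.16, and most were called lower at both steps. None of the 8 globozoospermia genes rose at the entry into round spermatids, while Fam209, whose protein binds Dpy19l2 in the inner nuclear membrane, rose there by 5.27 ± 0.201 (edgeR, adjusted p = 3.6e-15). Fam209 was at 26.7 ± 1.16 CPM (SD, n = 2) in pachytene or later spermatocytes, 572 ± 53.1 CPM in earlier and 1329 ± 23.0 CPM in later round spermatids. Of the called genes among the 24, 2 turned sign at the second step as UMIs per cell. At the last step 1 turned by library size, 2 as UMIs per cell, 1 with thinned cells and 1 with Leiden clustering. Fam209 was among those at the last step by library size, as UMIs per cell and with Leiden clustering.

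The structural genes Spaca1, an acrosomal membrane protein, and Cylc1 and Cylc2, of the perinuclear theca, rose at the same step by 4.70, 4.74 and 5.81 (edgeR, adjusted p = 6.3e-15, 3.9e-15 and 2.0e-15). Gmcl1, like Gopc, fell there, by 2.82 ± 0.162 (edgeR, adjusted p = 1.3e-12), from 306 ± 40.2 CPM in pachytene or later spermatocytes to 46.4 ± 2.75 CPM (SD, n = 2) in earlier round spermatids. Zpbp2, an acrosomal matrix protein that binds the zona pellucida, had the same calls as Dpy19l2 at all 3 steps. It rose by 2.23 ± 0.173 to pachytene or later spermatocytes, changed by -0.21 ± 0.161 to round spermatids without a call, and fell by 2.43 ± 0.174 to elongating or condensing spermatids (edgeR, adjusted p = 1.4e-09, 0.25 and 6.9e-11).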

How the data were processed

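The authors digested a part of each testis, freed of its tunic, strained the cells, a step meant to keep somatic cells few, built 1 Chromium 3' v2 library per mouse and deposited 1 joint table of UMI counts. Per the labels the reads were processed with bcl2fastq 2.17.1.14 and Cell Ranger 2.0.0 on mm10. The study states that the more deeply sequenced library was downsampled to equal read depth per cell, and the deposited counts also hold 1182 rows of repeats, which were kept in the totals. Mouse was read from the barcode suffix.

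The members and lists were chosen with earlier results of these data known. All 8 members are named. Of the 2 lists, of 12 and 24 genes, counts are given in full with values for any gene named (1 listed gene is not reported here by name), and the 3 genes most like a member are those with the highest Pearson correlation. Cells were clustered (K-means, K = 9, 10 principal components, scikit-learn 1.9.0) without 44 listed genes, and named where at least 3 markers exceeded 1.5 times the mean. Scrublet, in scanpy 1.11.5, called 25 doublets, which were kept. UMIs were summed per mouse and class (8 sums) and tested with edgeR 4.0.16 (glmQLFit, filterByExpr, TMM). Sums with the same number come from the same mouse, and their deviations correlated at 0.0372 to 0.227 over 6 pairs of classes. On simulated data for the step from pachytene or later spermatocytes to round spermatids, the test recovered 162 of 200 genes changed 4-fold, with 10 false calls. The 200 were drawn from all 14797 genes, and 11580 genes passed the filter on low counts in the simulated data. A changed gene removed by that filter counts as not recovered. The simulation gave all classes the same mean levels but for these genes and drew every sum independently. It does not cover smaller changes, shifts in make-up between classes or sums that share a mouse. Poisson and binomial intervals are exact at 95%, limits for 0 UMIs use 3 counts, and both cover counting error only. Coordinates are from GENCODE on GRCm38. Alternatives were DESeq2 1.42.0, other scalings, filters, clusterings, thinning, the mouse as a block and each mouse alone. The fit over 6 clusters, also scaled by library size and per cell, was added after the data had been seen.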

Additional observations from a re-analysis of the deposited data

How the results depend on the processing

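Of 285 recomputed values for the 8 genes at the 3 steps, 233 stayed the same, 26 crossed the threshold in the same direction, 7 moved and 19 turned sign. Where a test was run, staying the same means keeping the direction and the side of the threshold. The values of each mouse alone are counted here without a test, so they have no side of it. Those that moved were all among them. All that turned sign were uncalled values in the main comparison. The cause was not tested. At the first step, from early to pachytene or later spermatocytes, library-size scaling gave Pick1 -0.04 and Gba2 -0.22, and DESeq2 gave Gba2 -0.12. At the second step Agfg1 was -0.09 by library size and -0.75 as UMIs per cell, and Pick1 was 0.10 with thinned cells. At the third step DESeq2 gave Gopc 0.07, Gba2 0.41, Vps54 0.82 and Csnk2a2 0.18, clustering on the 2000 most variable genes gave Gopc 0.39, Gba2 0.24 and Csnk2a2 0.00, Leiden clustering gave Gopc 0.29 and Gba2 0.27, library size gave Agfg1 -0.56 and UMIs per cell -0.95, and Gba2 was 0.00 without called doublets and 0.11 with thinned cells.

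The number of members called higher at the first step was 6 in place of 4 as UMIs per cell. The number called lower there, which counts Vps54, was 2 in place of 1 with DESeq2, library size, the 2000 most variable genes and the replicate block, and 0 with thinned cells, where fewer genes were tested and Vps54 had no value. At the second step it was 5 by library size and with the 2000 most variable genes, and 8 as UMIs per cell, in place of 2. At the third step it was 7 by library size and as UMIs per cell in place of 3, and the number called higher was 2 with DESeq2 and 1 with thinned cells or the 2000 most variable genes in place of 0. All genes tested shifted as well against TMM. At the first step the median shift was 0.32 as UMIs per cell, -0.27 with DESeq2 and -0.35 by library size. There it was -0.05 with the 2000 most variable genes and 0.00 with the replicate block. At the second step it was -0.20 by library size and -0.10 with the 2000 most variable genes. Over the 10869 genes tested with them, thinned cells gave 2618 higher calls at the first step, 3592 higher and 2664 lower at the second and 3448 lower at the third. UMIs per cell gave 8162 lower at the second and 2204 higher and 9573 lower at the third, library size 2696 and 8402, and DESeq2 3432 lower, of 14797 genes tested. Calls over all genes are not given for each setting, so the counts of members above are not read as a trait of the 8 genes. Of 46 values of the fit between clusters recomputed with other scalings, 10 turned sign. From earlier to later round spermatids Agfg1 was -0.14 by library size. From there to the UMI-richer elongating or condensing cluster Agfg1 was -0.38 by library size and -0.26 as UMIs per cell, and Gopc -0.01 by library size. Between the UMI-richer and UMI-poorer clusters library size gave Agfg1 -0.17 and Csnk2a2 -0.24, and UMIs per cell gave Agfg1 -1.09, Gba2 -0.60, Csnk2a2 -1.17 and Gopc -0.31.

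With the mouse as a replicate block, Gopc at the first step was the only member whose call changed (-0.37, adjusted p = 0.043 by edgeR). Each mouse alone leaves no spread to test. Vps54 then gave -2.61 at the first step without mouse 2, and its 27 UMIs limit every statement on it.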
